A study of Mus musculus with 18 samples.

Results

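HPRT-knockdown and control ESD3 cells were compared at the embryonic stem (ES) stage, before neuronal differentiation was started. The comparison used 6 of the 18 deposited Illumina MouseWG-6 v2 arrays, chosen by their labels: 3 of control and 3 of HPRT-knockdown ES cells. The other 12 arrays hold the same pair of cell types at the spherical neural mass (SNM) stage, a floating culture of neural precursors, and at the final neuronal stage. ESD3 is a mouse ES cell line of strain 129s2/SvPas, and all cells of both groups had been infected and drug-selected. Knockdown cells carried an shRNA against HPRT and control cells an shRNA against luciferase. The sample labels call the vector a retrovirus, and the study's methods call it lentiviral with a hairpin designed against the human gene. The methods describe ES cells kept with LIF and bFGF on a layer of primary mouse embryo fibroblasts, called feeders, whose RNA can enter an ES-stage sample. Whether the cells of a group came from 1 clone is not given in the sources used here. RNA from replicate cultures was pooled before hybridisation, so the 3 arrays of a group repeat 1 RNA pool, and every standard error and adjusted p below measures array error and not the spread between cultures.

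HPRT, hypoxanthine phosphoribosyltransferase, returns the free bases hypoxanthine and guanine to the nucleotides IMP and GMP. This salvage route spares the cell the longer de novo pathway that builds the purine ring on phosphoribosyl pyrophosphate. The gene lies on the X chromosome, and its loss in humans causes Lesch-Nyhan disease, a neurological disorder with overproduction of uric acid. Undifferentiated ES cells express the transcription factors Oct-4, Nanog and Sox2, and a small share of cells in such cultures can differentiate towards extraembryonic lineages or mesenchyme.

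Each of the 6 arrays detected between 18827 and 19982 of 45281 probes, and pairs of arrays within a group correlated at 0.991 to 0.995, against 0.988 to 0.992 between the groups. Tests covered the 18411 probes with a detection p-value under 0.05 on all 3 arrays of the control side, the knockdown side or both. Levels are normalized log2 signals, and a change is a log2 fold change (knockdown minus control) from limma. Called probes are those with an adjusted p (Benjamini-Hochberg) under 0.05 whose fold change reached 1.5 in either direction. All 9 ES cell markers of a short marker list were detected on all 6 arrays, with summed signals of 30530 to 31160 in control and 28410 to 31880 in knockdown cells.

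The targeted gene, listed on the array as Hprt1, fell on all of its 3 probes. The brightest probe read 12.035, 12.071 and 12.004 on the control arrays and 8.14, 7.96 and 7.75 on the knockdown arrays. Its log2 signal fell by 4.09 (SE 0.0772, adjusted p = 7.15e-15), which is 17-fold lower, a change of -94.1% in signal. The other probes fell by 4.07 and 4.38, and on the dimmest of them the transcript was detected on only 2 of the 3 knockdown arrays.

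Around this loss, no other gene of purine synthesis or salvage was called. Of 23 tested genes of de novo purine synthesis none was called in limma's test, against 1.68% of all probes tested, and their log2 fold changes lay between -0.26 and 0.25. At an unadjusted p under 0.05 there were 9 of the 23, beside 25.9% of all probes tested. An adjusted p under 0.05 was reached by 2 of the 23, with changes under 1.5-fold. Ppat, the enzyme of the committed first step, had a log2 fold change of -0.15 (SE 0.0676, adjusted p = 0.173), and the values for Paics, Atic and Gart of the later steps were -0.22, -0.20 and -0.04. Impdh2, the dehydrogenase that leads from IMP to guanine nucleotides, stood at 0.21 with an adjusted p of 0.0655. The median over the list was -0.07, beside 0.01 over all probes tested, with 18 of the 23 genes below 0 and 5 above.

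Of 27 tested genes of purine salvage and breakdown, only Hprt1 was called. Aprt, which salvages adenine as HPRT salvages hypoxanthine, read 12.01, 11.98 and 12.01 on the control arrays and 12.05, 11.88 and 11.92 on the knockdown arrays. These values overlapped, with a log2 fold change of -0.05 (SE 0.0513, adjusted p = 0.583). Ada, adenosine deaminase, had a log2 fold change of -0.42 on its brighter probe (SE 0.133, adjusted p = 0.0525), with its arrays apart. The adenylate kinase Ak3l1 passed the adjusted p with a change of 0.35 that stayed under 1.5-fold (adjusted p = 0.00201). None of 15 tested purinergic receptors and nucleoside transporters was called in limma's test, with 9 of them at an unadjusted p under 0.05, where 25.9% of all probes tested were. An adjusted p under 0.05 was reached by 3 of the 15, with changes under 1.5-fold.

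**Figure D1:**
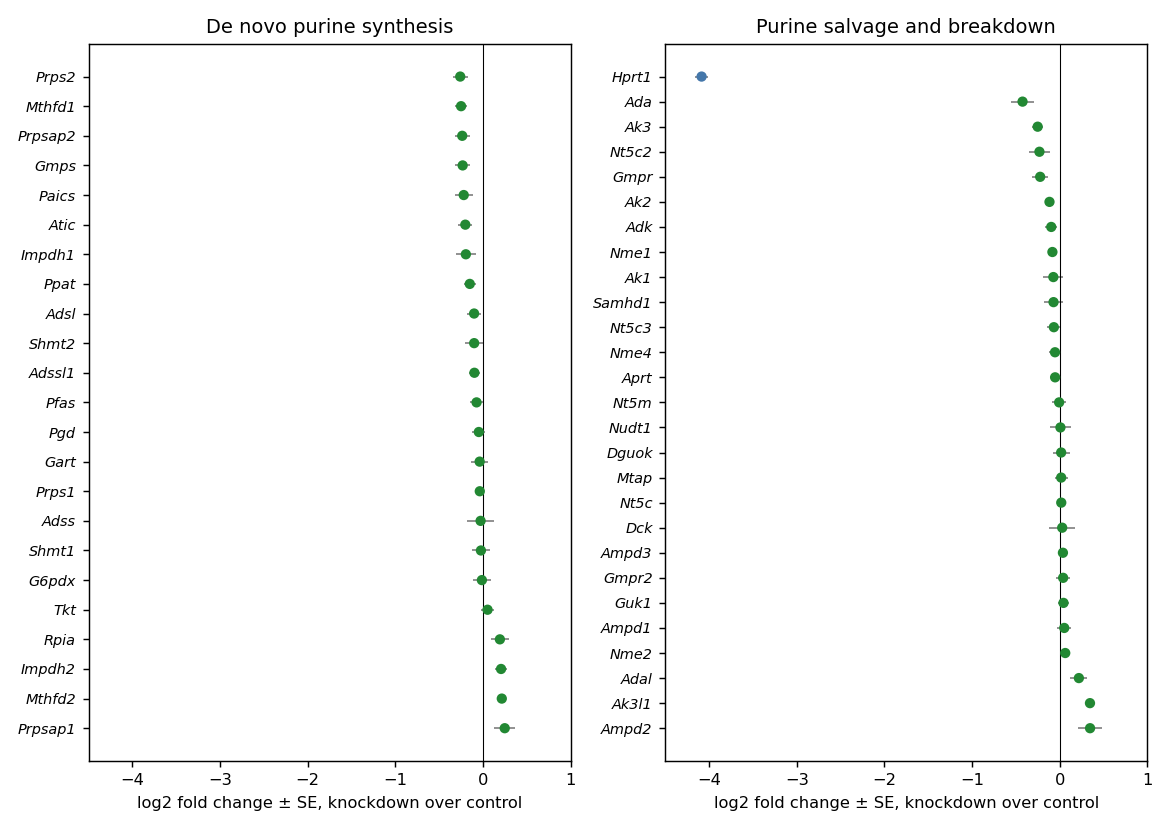
Log2 fold change of knockdown over control ES cells for the tested genes of de novo purine synthesis (left) and of purine salvage and breakdown (right), 1 probe a gene, with standard errors from limma. Hprt1 stands alone at -4.09 (blue), and all other genes (green) lie between -0.42 and 0.35.

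Over the whole array, 95 probes were called higher in knockdown cells (0.516% of those tested) and 215 lower (1.17%), for 89 and 191 gene symbols. Their median log2 fold changes were 0.69 and -0.69, and 6 and 19 of them passed 2-fold. The knockdown and control arrays did not overlap for 307 of the 310 called probes, and for 31.6% of all probes tested. Without a minimum fold, 1068 probes were higher and 1014 lower at an adjusted p under 0.05. Some calls rest on signals close to background: 20 of the 215 lower probes were detected on none of the knockdown arrays, and 11 of the 95 higher probes on none of the control arrays. A further 34 and 23 lower probes were detected on only 1 and 2 knockdown arrays. Likewise 15 and 14 higher probes were detected on only 1 and 2 control arrays. The counts depend on background correction, without which quantile-normalized signals gave 12 higher and 46 lower probes and unscaled signals 20 and 28.

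**Figure D2:**
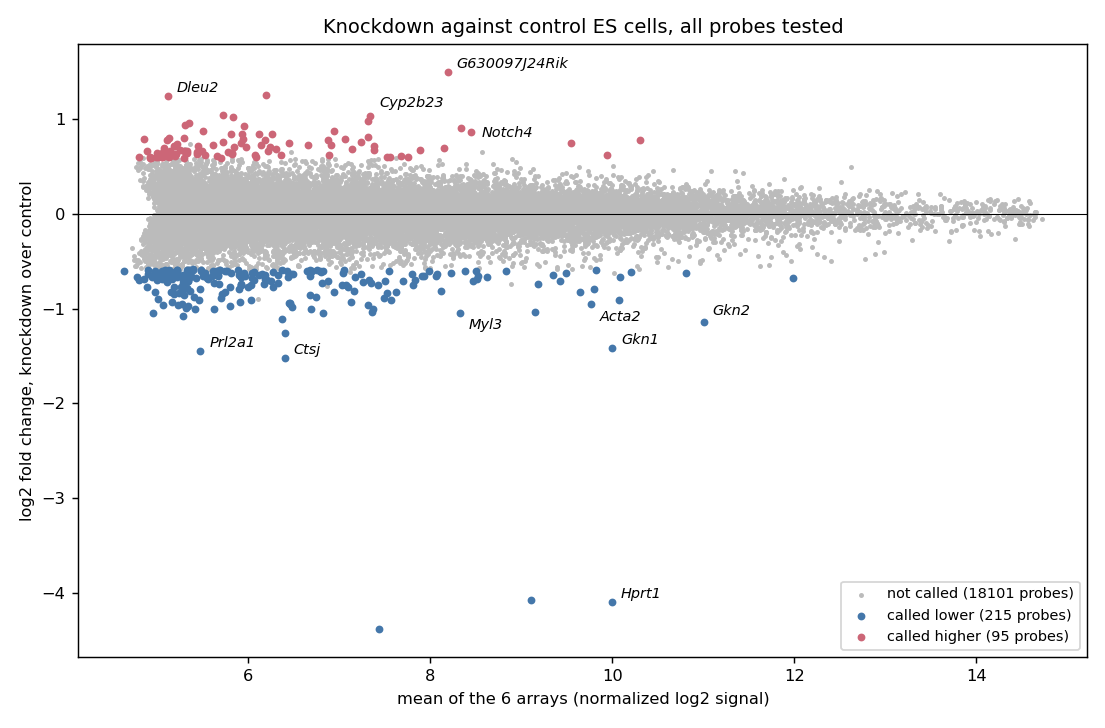
Log2 fold change of each of 18411 tested probes against its mean normalized log2 signal over the 6 arrays, with called probes in colour (95 higher, 215 lower) and chosen genes labelled. Apart from the 3 Hprt1 probes near -4, the called changes lie between -1.52 and 1.49, and most are on dim to moderate signals.

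None of the transcription factors that define the undifferentiated state was called. Pou5f1, which encodes Oct-4, read 12.27, 12.37 and 12.28 on the control arrays and 12.43, 12.26 and 12.33 on the knockdown arrays. The groups overlapped, with a log2 fold change of 0.03 (SE 0.0751, adjusted p = 0.833). Nanog had log2 fold changes of -0.13 on its brighter probe and 0.18 on the other (adjusted p = 0.292 and 0.218). Those of Sox2 were -0.28 and 0.08 (adjusted p = 0.204 and 0.762). Of 40 tested pluripotency genes 1 was called, Fut4, the fucosyltransferase that makes the SSEA-1 surface antigen. It changed by -0.59 (SE 0.149, adjusted p = 0.0183) and was detected on 1 of the knockdown arrays. The median over these 40 genes was 0.00, and their summed signals ran from 84950 to 87390 in control and from 84300 to 87670 in knockdown cells. The neuronal genes Tubb3, Slc6a3 and Th were not detected on all 3 arrays of either group and were not tested.

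Genes of the contractile actin cytoskeleton were among the falls. A list of such genes was put together after their values were seen, so that its count is no independent evidence. Of its 41 tested genes, 15 were called lower and none higher, where 1.17% of all probes tested were lower. A log2 fold change below 0 was found for 38 of the 41. The list's median was -0.34, beside 0.01 over all probes tested. Acta2, the alpha actin of smooth muscle and myofibroblasts, read 10.24, 10.23 and 10.25 on the control arrays and 9.23, 9.32 and 9.31 on the knockdown arrays on its brightest probe. It fell by 0.96 (SE 0.0480, adjusted p = 9.79e-09), and all 4 of its probes were called, between -1.03 and -0.75.

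Further muscle actins were called lower. Actc1, the cardiac alpha actin, read 7.65, 7.50 and 7.56 against 6.60, 6.84 and 6.81, and fell by 0.82 (SE 0.0869, adjusted p = 3.39e-05). Acta1, the skeletal alpha actin, fell by 0.61 (SE 0.173, adjusted p = 0.0342), a call that was lost when any 1 of the 6 arrays was left out. Among myosin light chains, Myl3 fell most, from 8.86, 8.86 and 8.81 on the control arrays to 7.85, 7.69 and 7.85 on the knockdown arrays (change -1.05, SE 0.124, adjusted p = 7.57e-05). Myl9, the regulatory light chain of smooth muscle, fell by 0.65 and 0.73 on its probes. The calcium sensor Tnnc1 of striated muscle fell by 0.60 and the tropomyosin gene Tpm2 by 0.64.

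Genes for proteins that sit beside actin filaments fell as well. Tagln, an actin-binding protein of smooth muscle, fell by 0.70 and was detected on 1 knockdown array. Tgfb1i1 and Fhl2, LIM-domain adaptors of focal adhesions, fell by 0.86 and 0.72, and Cav1, the coat protein of caveolae, by 0.93 (SE 0.0636, adjusted p = 3.08e-07). Synpo, Cryab, Ankrd1 and Lmna completed the called genes, at -0.65, -0.63, -0.62 and -0.62. Srf, the transcription factor that drives many of these genes, had a log2 fold change of -0.34 (adjusted p = 0.00704), which is under 1.5-fold. Myl6, a myosin light chain of all cells, stood at -0.07 (adjusted p = 0.592). In the 3 runs without background correction, 3 to 5 of the 15 stayed called, with Acta2, Myl3 and Cav1 in each.

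Many contractile genes carry a CArG box, the sequence that serum response factor binds, close to their start. The table of RefSeq promoters used here (build GRCm38.p6) held 11 of the 15 called genes. A CArG box was counted only in the exact form CCWWWWWWGG, where W is A or T, searched on both strands. Forms with a mismatch were not counted, so a gene without a match may still carry such a form. The exact form stood within 250 bases upstream of the start in 5 of the 11 (Acta1, Actc1, Fhl2, Myl3 and Myl9). It stood in 5 of the 23 uncalled listed genes held by the table, and in any promoter of 1.62% of all 27025 genes (1.47% of 32851 promoters). The upstream stretches of the actin and myosin genes among the 5 are shown, since these genes fell together, with the CArG box in capitals and each ending at the base before the annotated start. They are, in order, chr2:114052876-114053125 (minus strand), chr2:156775214-156775463 (plus), chr8:123894776-123895025 (minus) and chr9:110763428-110763677 (plus). A match is a description of these letters and was not measured as a bound site.
Actc1: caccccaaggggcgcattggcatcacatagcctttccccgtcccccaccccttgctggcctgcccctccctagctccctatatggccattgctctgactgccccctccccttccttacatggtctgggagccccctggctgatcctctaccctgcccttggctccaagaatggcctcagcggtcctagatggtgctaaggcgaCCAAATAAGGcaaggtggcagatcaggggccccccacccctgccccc
Myl9: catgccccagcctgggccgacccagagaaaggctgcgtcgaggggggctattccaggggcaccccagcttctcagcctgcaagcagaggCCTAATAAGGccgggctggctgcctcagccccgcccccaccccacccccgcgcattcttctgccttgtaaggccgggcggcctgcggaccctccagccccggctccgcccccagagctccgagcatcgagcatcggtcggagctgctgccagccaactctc
Acta1: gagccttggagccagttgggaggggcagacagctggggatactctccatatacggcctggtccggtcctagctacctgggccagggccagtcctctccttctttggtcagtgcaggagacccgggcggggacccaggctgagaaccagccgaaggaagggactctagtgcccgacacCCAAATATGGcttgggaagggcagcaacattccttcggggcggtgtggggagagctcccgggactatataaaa
Myl3: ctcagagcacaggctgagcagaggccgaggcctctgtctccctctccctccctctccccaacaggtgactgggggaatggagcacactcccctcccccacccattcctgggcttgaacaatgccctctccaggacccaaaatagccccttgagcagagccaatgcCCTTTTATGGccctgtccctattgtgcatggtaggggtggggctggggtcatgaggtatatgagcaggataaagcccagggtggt

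Genes of connective tissue fell in the same samples. On a list of embryo fibroblast markers, 9 of 35 tested genes were called lower and none higher, where 1.17% of all probes tested were lower. The list was chosen with earlier results of these data known, and its called genes Acta2 and Tagln are on the contractile list too. Of the 35 genes, 29 had a log2 fold change below 0, and the median was -0.42. Col6a3, a chain of collagen VI, read 5.31, 5.51 and 5.80 on the control arrays and was detected on no knockdown array. It was at least 1.52-fold lower there (fitted change -0.96, adjusted p = 3.94e-05). Bgn, the small proteoglycan biglycan, read 8.01, 8.08 and 8.02 against 7.15, 7.26 and 7.23, and fell by 0.82 (SE 0.0593, adjusted p = 4.92e-07). Fbln2 (fibulin 2) fell by 0.95, Tnc (tenascin C) by 0.78, the hyaluronan receptor Cd44 by 0.74, and Igfbp5, S100a4 and Tagln by 0.70 each.

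A wider list of matrix genes was also made after the values were seen and held 25 of the fibroblast markers. It had 10 of 41 tested genes lower and 1 higher, where 1.17% of all probes tested were lower and 0.516% higher. Timp2, an inhibitor of matrix metalloproteinases, read 8.52, 8.59 and 8.47 against 7.71, 7.79 and 7.63 and fell by 0.82 (SE 0.0591, adjusted p = 4.92e-07). The gene that rose was Vcan, the large proteoglycan versican, by 0.59 (SE 0.141, adjusted p = 0.0134). Uncalled genes included Fn1 (fibronectin), at 0.31 on its brightest probe (adjusted p = 0.0549), Vim (vimentin), at -0.06 (adjusted p = 0.699), and Sparc, at -0.28 (adjusted p = 0.0101). Over the fibroblast, contractile and matrix lists together, 32 symbols were called lower and 1 higher on any probe. Over the whole array these counts were 191 and 89. In bulk RNA, fewer cells of a type and less RNA per cell cannot be told apart.

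The summed signals of feeder markers moved in the same direction. The summed signal of the tested fibroblast markers ran from 12760 to 13170 on the control arrays and from 10340 to 11090 on the knockdown arrays. Of 18 defining feeder markers, 10 were detected on all 6 arrays and 4 on none (Col1a1, Lum, Postn and Pdgfrb). Of the 12 that were tested, 3 were called lower and none higher, where 1.17% of all probes tested were lower. The summed signal of the 18 was 2587 to 2623 in control and 1868 to 1970 in knockdown cells. This sum adds unlogged signals, and most of its fall was that of Acta2 (mean log2 signal 10.24 in control and 9.29 in knockdown cells). Acta2 is on the contractile list too. The part that feeder content had in the fall of the contractile and matrix genes was not tested. In each of the 3 runs without background correction, 2 of the 9 called fibroblast markers stayed called, Acta2 and Bgn. The list's median lay between -0.44 and -0.19 under all alternatives run.

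**Figure D3:**
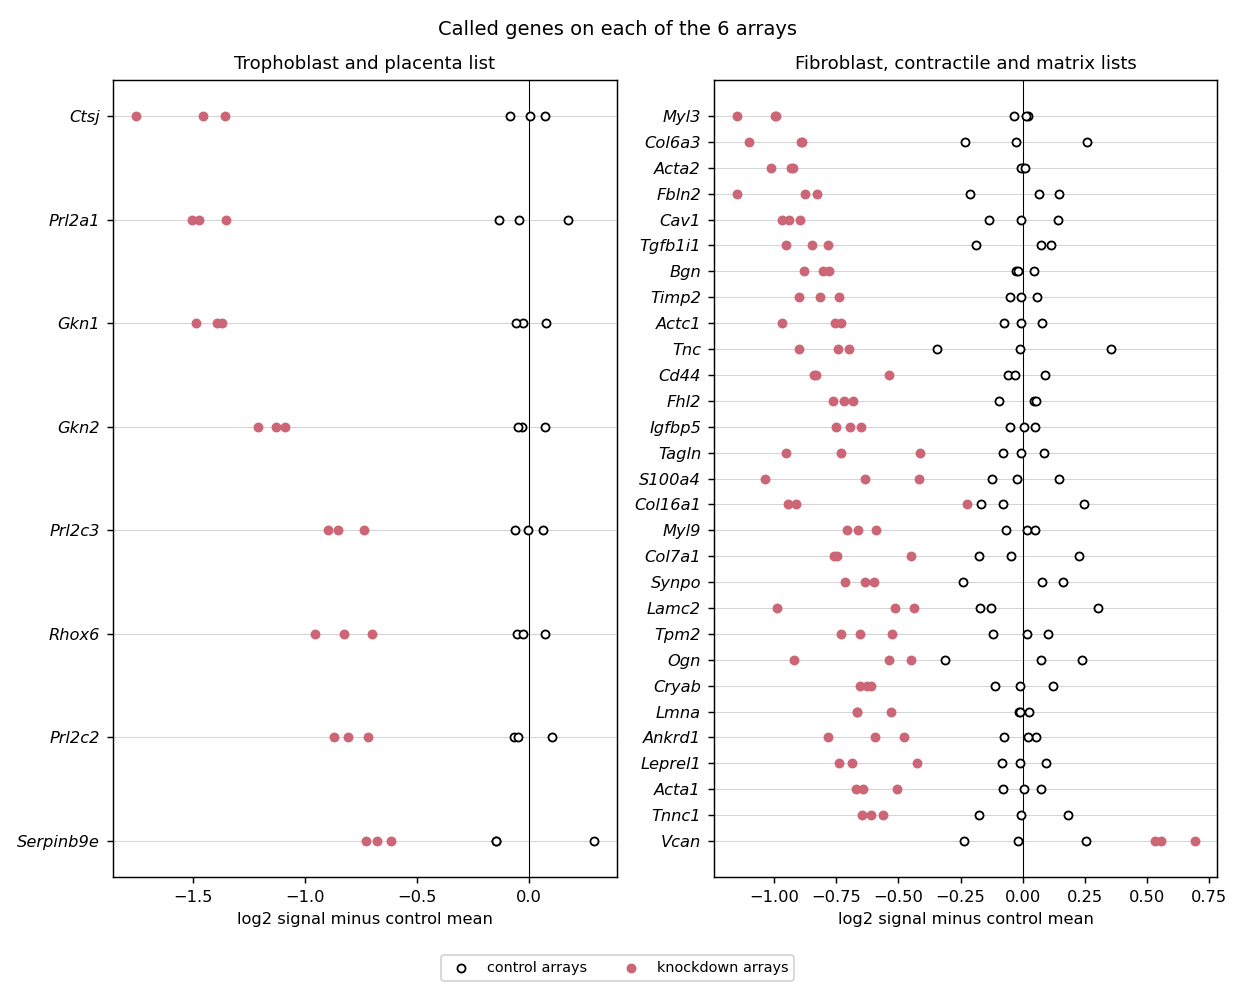
Normalized log2 signal on each array minus the mean of the control arrays, for the called genes of the trophoblast and placenta list (left) and of the fibroblast, contractile and matrix lists (right). Open points are the 3 control arrays and filled points the 3 knockdown arrays, which lie to the left for every gene shown except Vcan.

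The 3 largest falls after Hprt1 were in genes listed for trophoblast and placenta, tissues that ES cells rarely form. This list was chosen with earlier results of these data known, so that its count is no independent evidence. Of its 31 tested genes 8 were called lower and none higher, where 1.17% of all probes tested were lower. The median over the list was -0.26 (-0.20 with genes under background at their bounds). The median depends on which genes detection admits, at -0.04 with no detection filter and -0.43 at a detection p under 0.01. Ctsj, a cathepsin protease of the placenta, read 7.16, 7.23 and 7.08 on the control arrays and 5.80, 5.40 and 5.70 on the knockdown arrays. It fell by 1.52 (SE 0.0959, adjusted p = 1.09e-07), which is 2.87-fold. Prl2a1, a placental member of the prolactin family, read 6.06, 6.15 and 6.36 on the control arrays. It was detected on none of the knockdown arrays and was at least 2.39-fold lower there (fitted change -1.44, adjusted p = 9.43e-08).

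Further prolactin-family genes of chromosome 13 fell, among them the proliferins Prl2c2 (by 0.80, SE 0.0915, adjusted p = 6.06e-05) and Prl2c3 (by 0.83). The probe listed as OTTMUSG00000000651, now Prl2c1, fell by 1.11. The Prl2c genes are near-identical copies, and their probes may read each other's transcripts. Gkn1 and Gkn2, better known as gastrokines secreted by the stomach lining, fell from high levels. Gkn1 read 10.68, 10.65 and 10.79 against 9.34, 9.22 and 9.31 and fell by 1.42 (SE 0.274, adjusted p = 0.00353), and Gkn2 fell by 1.14 (SE 0.173, adjusted p = 0.000598). The X-linked homeobox gene Rhox6 fell by 0.83, and Serpinb9e, detected on no knockdown array, was at least 1.13-fold lower (fitted change -0.67, adjusted p = 0.00113).

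Of 10 defining trophoblast markers only 2 could be tested, and neither was called. Cdx2, Hand1, Tpbpa, Ctsq and Prl3d1 were detected on no array of either group. The log2 fold changes of Gata3, Gata2 and Eomes were -0.11, -0.10 and 0.04 (adjusted p = 0.661, 0.566 and 0.901). The summed signal of the defining trophoblast markers was 296.7 to 321.1 in control and 291.6 to 321 in knockdown cells. In the 3 runs without background correction, 7 of the 8 called genes stayed called with quantile normalization (all but Serpinb9e), 6 with 75th-percentile scaling (Rhox6 lost as well) and 5 unscaled (Prl2a1 lost too).

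Markers of extraembryonic endoderm, the lineage of the yolk sac, lay mostly below 0 by less than 1.5-fold. Of 34 tested genes, 25 had a log2 fold change below 0 and the median was -0.22, but only Plat, tissue plasminogen activator, was called lower, by 0.64 (SE 0.0661, adjusted p = 2.58e-05). The transcription factors Gata6 and Sox17 had log2 fold changes of -0.49 and -0.45 (adjusted p = 0.00436 and 0.00583) and the laminin chain Lamb1-1 one of -0.55 (adjusted p = 0.00348), all under 1.5-fold. Amn, which forms an endocytic receptor with Cubn, rose by 0.60 (SE 0.0643, adjusted p = 3.69e-05), while Cubn stood at 0.43 (adjusted p = 0.00215), under 1.5-fold. The summed signal of the defining endoderm markers was 8381 to 8644 in control and 6873 to 7157 in knockdown cells.

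Several regulators and epithelial genes were among the other falls. Sox9, a transcription factor of neural crest and cartilage, read 7.91, 8.04 and 7.85 against 6.95, 7.16 and 7.02 and fell by 0.89 (SE 0.0736, adjusted p = 2.47e-06). Fabp7, a fatty acid binding protein of radial glia, was at least 1.44-fold lower and detected on no knockdown array. Ebf3, a transcription factor of neurons and mesenchyme, fell by 1.00 (SE 0.0724, adjusted p = 4.92e-07). Of the Wnt and growth factor response genes, the transcription factors Lef1 and Myc fell by 0.72 and 0.64, while Sp5, a direct Wnt target, rose by 0.72 (SE 0.0766, adjusted p = 3.39e-05). Of 15 tested Hox genes, Hoxa5 and Hoxa2 fell by 0.91 and 0.60, each detected on 1 knockdown array, and Hoxd10, detected on no control array, was at least 1.36-fold higher. The keratins Krt14 and Krt17 fell by 0.74 and 0.60. Pim2, a kinase on the primed epiblast list, fell by 0.83 (adjusted p = 0.0132).

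With each gene ranked by its brightest called probe, 14 falls besides that of Hprt1 were listed as largest. Of these, the genes not yet described were Mfsd2, Rex2, Rac3 and a few transcripts without a gene name. Mfsd2, now Mfsd2a, a lipid transporter, fell by 1.08 and was detected on 1 knockdown array. Rex2 read 7.38, 7.36 and 7.30 on the control arrays but 6.97, 5.62 and 6.32 on the knockdown arrays, a fall of 1.04 (SE 0.208, adjusted p = 0.00435) whose size differed between the knockdown arrays. Rac3 fell by 1.00 on a probe near background, and its other probe stood at -0.01. The zinc finger gene listed as OTTMUSG00000010173, now Zfp987, fell by 1.03 with an adjusted p of 0.0492 and lost its call when any of 5 of the arrays was left out. The clones A230057G18Rik and LOC381150 fell by 1.26 and 1.00. The clone 2610017I09Rik, detected on no knockdown array, was at least 1.45-fold lower (fitted change -1.04).

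The rises were fewer, and no list held more than 2 genes called higher on their brightest tested probe. Over all probes of a gene, the list of small RNA machinery had 4 of 38 probes called higher and none lower. On brightest probes only 1 of its 20 tested genes was called, Dleu2, so its other called probes were not the brightest of their genes. The cytochrome P450 list had 3 of 22 probes higher and none lower, where 0.516% of all probes tested were higher. The largest was the unnamed transcript G630097J24Rik, at 7.36, 7.47 and 7.49 on the control arrays and 8.93, 8.90 and 8.98 on the knockdown arrays (change 1.49, SE 0.0922, adjusted p = 9.43e-08). With each gene ranked by its brightest called probe Dleu2 came next, a non-coding RNA whose gene holds the microRNAs miR-15a and miR-16-1. Its 1 tested probe read 5.80, 5.71 and 5.69 on the knockdown arrays and was detected on no control array, so that it was at least 1.82-fold higher (fitted change 1.24, adjusted p = 9.9e-09). The array did not measure the microRNAs, whose mature sequences (RefSeq, GRCm38.p6, minus strand of chromosome 14) are given to show that both carry 1 seed, bases 2 to 8 in capitals.
miR-15a-5p: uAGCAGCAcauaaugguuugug
miR-16-5p: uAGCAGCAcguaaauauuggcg

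Cyp2b23, a cytochrome P450, read 6.88, 6.81 and 6.78 against 7.89, 7.83 and 7.85 and rose by 1.03 (SE 0.0917, adjusted p = 5.68e-06), with its other probe at 1.25. Cyp4f14, a P450 that hydroxylates fatty acids and leukotrienes, rose by 1.02 (SE 0.148, adjusted p = 0.00041). They were 2 of 15 tested P450 genes, and the median of that list was -0.08. Cidea, a lipid droplet protein, rose by 0.92, the sulfotransferase Chst3 by 0.84, and Slc30a2, a zinc exporter, from 7.02, 6.76 and 6.69 to 7.75, 7.79 and 7.85 (change 0.98, SE 0.113, adjusted p = 6.33e-05). Serpina3m, a protease inhibitor of a multigene cluster, rose by 0.91 (SE 0.0756, adjusted p = 2.76e-06).

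The list of gamma-secretase and amyloid processing genes covers the membrane protease that cuts Notch and the amyloid precursor. Of its 32 tested genes, 2 rose and 2 fell, where 0.516% of all probes tested were higher and 1.17% lower. Notch4, a receptor that this protease cleaves, read 7.98, 8.15 and 7.92 against 8.87, 8.92 and 8.84 and rose by 0.86 (SE 0.0598, adjusted p = 3.68e-07). Psen2, a catalytic subunit, rose by 0.71 (SE 0.147, adjusted p = 0.00578), while the subunit Ncstn stood at 0.06 (adjusted p = 0.627). The falls were Bace2, by 0.66, and Acta2, which stands on that list too. Without background correction, at an offset of 50 or with the 6 ES arrays fitted alone, only Notch4 and Acta2 stayed called.

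For 2 of the largest rises the probes of the gene disagreed. Zcchc6, now Tut7, a uridylyltransferase that tails RNA, rose by 1.04 on its dimmest probe, and its brighter probes stood at 0.17 each. Timm9, a chaperone of mitochondrial import, rose by 0.96 on a probe detected on 1 control array, and its other 3 probes stood between 0.09 and 0.26. Fam169b and the entries Tcrg-V4, LOC674912 and OTTMUSG00000010552 (now Pramel30) rose by 0.84 to 0.94. The mesoderm gene Gsc, detected on no control array, was at least 1.3-fold higher (fitted change 0.79, adjusted p = 6.67e-05). Without background correction, 6 of the 15 largest rises stayed called: G630097J24Rik, Cyp2b23, Slc30a2, Serpina3m, LOC674912 and Notch4.

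On 12 further lists no gene was called by limma on its brightest probe, and 99 of their 409 genes (24.2%) had an unadjusted p under 0.05, beside 25.9% of all probes tested. Dimmer probes of Ddx3y on the Y-linked list (-0.68, adjusted p = 0.00635) and of Dcn on the imprinted list (-0.75, adjusted p = 4.34e-05) were called lower. The lists were 63 tested cell cycle and replication genes (median -0.10), 43 Atf4 stress and one-carbon genes (0.07), 39 p53 targets (0.04), 39 heat shock and unfolded protein genes (-0.05), 28 interferon genes (0.06), 33 genes of DNA methylation and silencing (0.02), 30 imprinted genes (-0.05), 32 cholesterol synthesis genes (0.06), 49 histone genes (-0.05), 29 huntingtin partners (0.01), 13 genes of 2-cell-like cells (0.06), and 11 Y-linked genes with Xist (-0.12). The hypoxia and glycolysis list had the highest median of the 38 lists, 0.13, with Car9 called higher (by 0.59) and Epas1 lower (by 0.63) of 46 tested. Vegfa and Adm of that list, at 0.30 and 0.53, were not called. Of 14 tested plasminogen activation genes, Plat and Enpep were lower, and the median was -0.30 (-0.23 with genes under background at their bounds, -0.04 with no detection filter). Of 49 lysosomal genes Lamp2 was lower, on 1 of its 6 probes. The remaining called genes of lists were Sycp2 among 35 germ line genes, Cdh5 among 29 junction genes, Slc25a18 and Slc5a4b among 172 solute carriers and Zfp703 among 198 zinc finger genes, all lower.

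**Figure D4:**
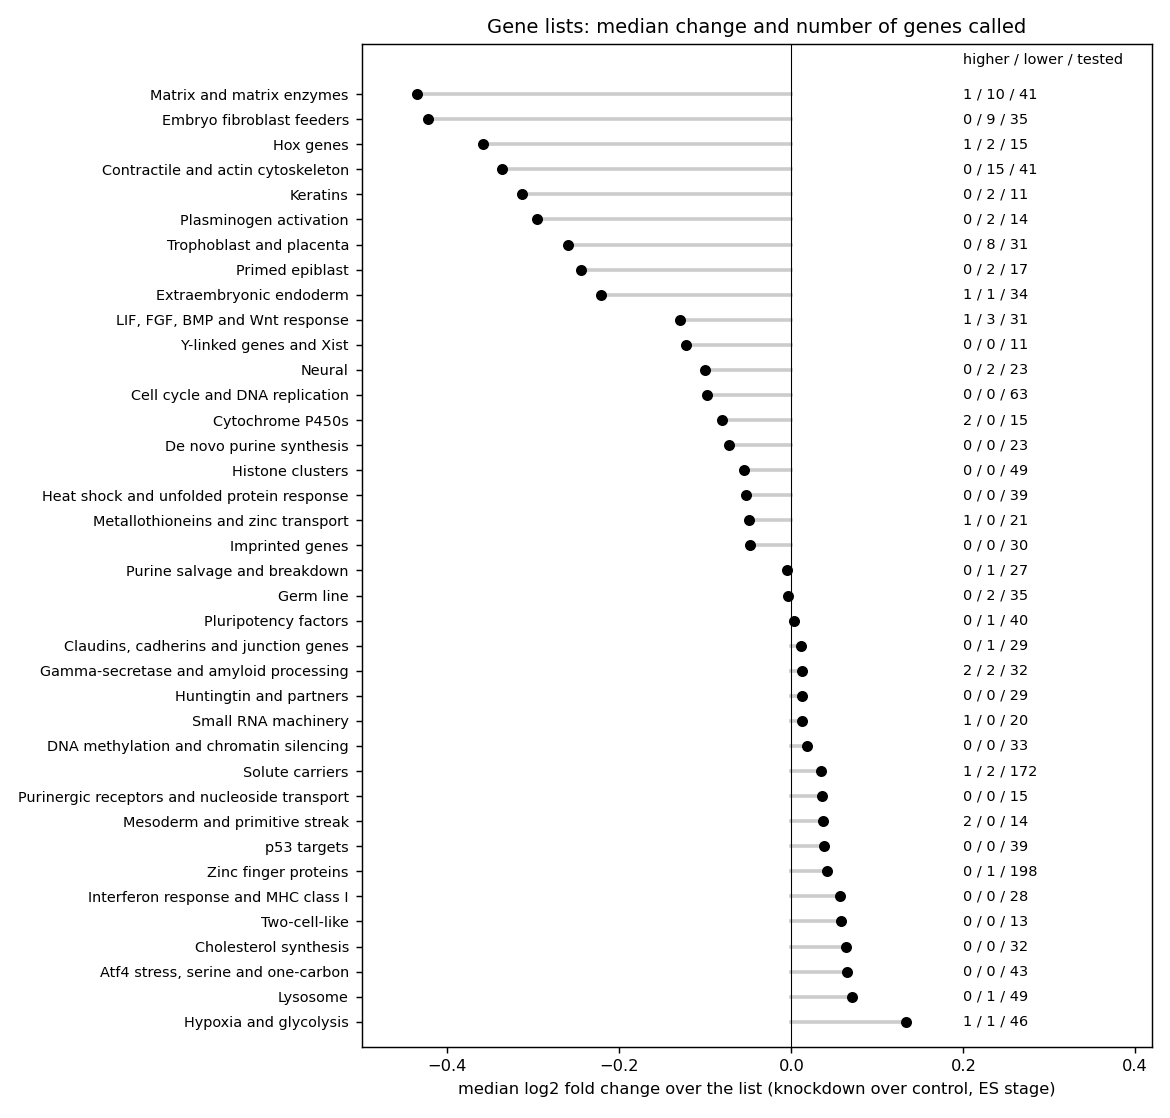
Median log2 fold change of knockdown over control ES cells for each of 38 gene lists (points), 1 probe a gene, with the number of genes called higher, called lower and tested. The lowest medians are those of the matrix (-0.44, or -0.32 with genes under background at their bounds), fibroblast (-0.42), Hox (-0.36, or -0.02 with no detection filter) and contractile lists (-0.34), of which the matrix and contractile lists were made after the values were seen.

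The changes were spread over the genome, though 95 of the 310 called probes and 5473 of the 18411 tested had no listed chromosome. Medians by chromosome lay between -0.05 for chromosomes 15 and Y and 0.03 for chromosomes 7 and 17, among tested probes with a listed chromosome. On the X chromosome, which holds the targeted gene, 8 of 461 probes were lower, including the 3 of Hprt1, and none higher, with a median of -0.02. Chromosome 13, with its prolactin and serpin clusters, held 12 lower and 4 higher of 506 probes. The share called was 3.16% on chromosome 13 and 1.74% on the X chromosome, beside 1.68% of all probes tested.

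The same contrast at the later stages was made on other arrays. At the SNM stage 11% of tested probes were higher in knockdown cells and 8.90% lower, and at the neuronal stage 13.9% and 13.5%. Of the 171 probes that were lower at the ES stage and tested at the SNM stage, 61 were higher there (35.7%) and 13 lower (7.6%). At the neuronal stage 55 of 176 were lower (31.2%) and 41 higher (23.3%). Of the probes higher at the ES stage, 13 of 77 were higher at the SNM stage and 6 lower, and 23 of 74 were higher at the neuronal stage and 7 lower. The 3 Hprt1 probes were among 7 probes lower at all stages, and 7 probes were higher at all of them.

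Of the contractile list, 15 of 40 tested genes were higher at the SNM stage and none lower, and at the neuronal stage 6 of 41 were higher and 13 lower. Acta2 was lower by 0.96 at the ES stage, higher by 1.90 at the SNM stage (SE 0.0480) and lower by 1.00 at the neuronal stage. Actc1 went from -0.82 to 1.46 and then to -7.14, and Myl9 from -0.65 to 1.42 and -0.55. Cav1 was higher at both later stages, by 1.20 and 2.24, and Myl3, at -0.41 at the SNM stage, was higher at the neuronal stage by 1.30. Of the listed fibroblast markers, 10 of 31 tested were higher at the SNM stage and none lower, and 15 of 35 were lower and 7 higher at the neuronal stage. Col6a3 stood at 0.54 and -1.32 at these stages, and Bgn at -0.34 and -0.94.

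Among placental genes, Ctsj turned from -1.52 to 2.30 at the SNM stage and to -0.75 at the neuronal stage. Its control mean at the SNM stage was 4.30, so the size of that rise rests on a value near background. The lowest detected signals of the ES arrays were 4.851 to 4.993. Gkn2 was higher at the SNM stage, by 0.59, where Gkn1 stood at -0.15. Both were lower at the neuronal stage, Gkn1 at -2.285 and Gkn2 at -1.79. Prl2a1 stood at 0.57 at the SNM stage, where its control mean was 4.33, and was higher at the neuronal stage, by 0.89. Dleu2 was higher at every stage, by 1.24, 1.10 and 0.66, and Cyp4f14 by 1.02, 0.61 and 1.45. Cyp2b23 was not detected on all arrays of either group at the later stages, and Notch4 stood there at -0.13 and -0.33. Tested as a difference between stages, the knockdown effect of the called ES probes was higher at the SNM stage for 168 and lower for 58, against 11.7% and 9.61% of all probes tested. It was higher at the neuronal stage for 121 and lower for 71, against 13.6% and 13%. These differences use the ES arrays that chose the probes, so that a shift back towards 0 is built into them.

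**Figure D5:**
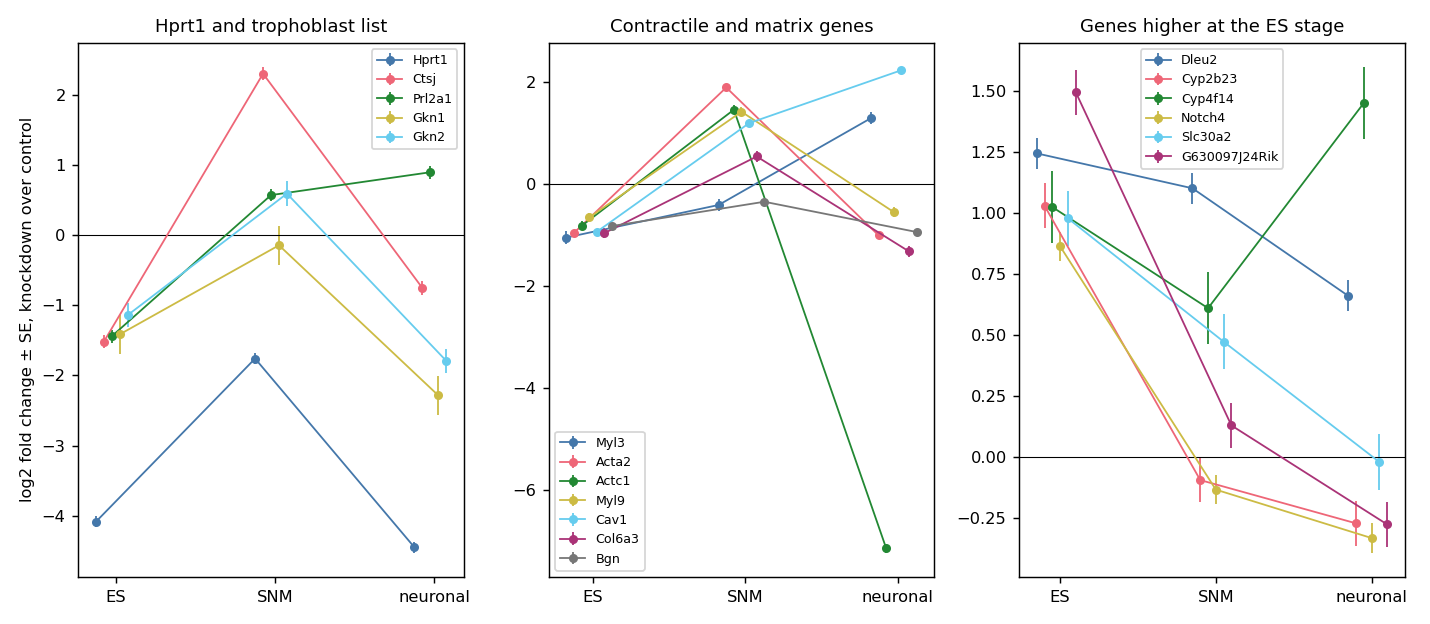
Log2 fold change of knockdown over control cells with limma standard errors at the ES, SNM and neuronal stages, for Hprt1 and trophoblast genes (left), contractile and matrix genes (middle) and genes higher at the ES stage (right). Acta2, Actc1, Myl9 and Cav1 change from below 0 at the ES stage to above 1 at the SNM stage, and Dleu2 and Cyp4f14 stay above 0 at all stages.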

How the data were processed

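RNA of 6 conditions was measured on 18 Illumina MouseWG-6 v2 arrays, 3 arrays from 1 RNA pool for each condition. The authors deposited, for each probe and array, the mean bead signal intensity with no background subtraction or scaling, and a detection p-value. A second deposited table served for probe annotation, and its 72 columns of per-sample values, named by chip position, were not used, and the study's RNA-Seq experiment was not analysed here.

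Background was estimated from the detection p-values by the neqc function (limma 3.58.1, R 4.3.3), which added an offset of 16, quantile-normalized the intensities and took log2. A limma model of the 6 conditions was fitted to all 45281 probes, with 12 residual degrees of freedom, and two-sided p-values were adjusted over the tested probes by Benjamini-Hochberg. A probe was called at an adjusted p under 0.05 and 1.5-fold. Fold bounds set the brighter group against the lowest detected signal, or the probe's own where higher, on each array of the other.

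The members, lists and tests were chosen with earlier results of these data known. The genes named are Hprt1, the 15 largest rises and 15 largest falls with arrays not overlapping (the targeted gene is 1 of these falls), the called genes of 36 lists with a few uncalled members beside them, and 6 marker genes of the study; 2 further lists were added after the values were seen. A listed gene is represented by its brightest tested probe. RefSeq accessions gave a current symbol for 231 of 310 called probes, and promoters and microRNAs were taken from RefSeq (GRCm38.p6). The array names no genome build, and its genes are placed by chromosome only. The scripts were tested on simulated data. Alternatives were other normalizations, detection limits, fold limits, models and the methods' t-test, and leaving out each array.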

Additional observations from a re-analysis of the deposited data

Results flagged for a closer look

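For some genes named at the later stages, the knockdown effect differed between stages in limma's test of the difference, given here as the later effect minus the ES effect on the log2 scale. The ES arrays that chose these genes enter each difference, and no explanation was tested. Hprt1 differed at the SNM stage by 2.33 (adjusted p = 2.17e-10), where its loss was smaller.

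In the trophoblast group, Ctsj differed by 3.82 (SNM) and 0.768 (neuronal), with a control mean near background at the SNM stage (4.30). Prl2a1 differed by 2.01 and 2.34, Gkn1 by 1.27 at the SNM stage alone, and Gkn2 by 1.73 and -0.651. In the contractile and matrix group, Myl3 differed by 0.64 and 2.34, Actc1 by 2.28 and -6.33, and Cav1 by 2.13 and 3.17. Acta2, Myl9 and Col6a3 were past the threshold at the SNM stage alone, by 2.85, 2.08 and 1.5.

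Of the genes higher at the ES stage, Cyp2b23 differed by -1.12 and -1.3, Notch4 by -0.996 and -1.19, and G630097J24Rik by -1.37 and -1.77. Slc30a2 was past the threshold at the neuronal stage alone, by -0.998. Its neuronal means were near background, at 4.54 in control and 4.52 in knockdown cells, and its knockdown effect was not tested at that stage.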

How the results depend on the processing

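Calls near background limit these results, since most called changes lie between 1.5-fold and 2-fold and shrink when background is left in or the offset is raised; 3 arrays of 1 pool give array error only. Against 95 higher and 215 lower probes, quantile normalization without background correction gave 12 and 46, 75th-percentile scaling without it 14 and 42, no scaling and no correction 20 and 28, and an offset of 50 gave 21 and 60. A 2-fold limit gave 6 and 19, no fold limit 1068 and 1014. The methods' t-test after Benjamini-Hochberg gave 19 and 59 unpaired and 0 and 0 paired by number, beside 91 and 203, and 67 and 161, unadjusted. Leaving out 1 array gave 110 to 150 higher and 207 to 249 lower probes; the higher count passed 1.5 times the full one without control array 2 (150) and knockdown array 3 (144). Hprt1 lay between -4.17 and -3.98 over these. Array numbers did not pair the groups (deviations of equal-numbered arrays correlated at -0.13, -0.011 and 0.11); with the number as a replicate block, 98 and 222 were called, and no named gene lost its call.

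The called ES probes whose effect was higher and lower at the SNM stage, and higher and lower at the neuronal stage (168, 58, 121 and 71), numbered 43, 8, 19 and 14 with quantile normalization without correction, 38, 9, 19 and 14 with 75th-percentile scaling, 28, 13, 12 and 18 unscaled, and 53, 14, 27 and 22 with an offset of 50. Leaving out 1 array gave 168 to 202, 68 to 101, 125 to 158 and 79 to 97; the second count reached 101 without control array 2 and 89 without knockdown array 3. None of the 89 named genes and probes changed direction under 12 alternatives, and 21 stayed called under all of them. Leaving out knockdown array 1 moved the primed epiblast median from -0.25 to 0.02.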

Other observations

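Beyond the lists, a few receptor and transport genes stood out, chosen after their values were seen. Both endothelin receptors were lower in knockdown ES cells, Ednra by 0.62 (SE 0.0684, adjusted p = 4.34e-05) and Ednrb by 0.66 and 0.85 on its probes. The Ednrb probe at -0.85 was detected on 1 knockdown array. The prostaglandin transporter gene Slco2a1 was lower on all 3 probes, between -0.91 and -0.71. The water channel gene Aqp1 was lower on both, by 0.75 and, on a probe detected on 1 knockdown array, by 0.82. The growth factor gene Fgf7, detected on 1 knockdown array, fell by 0.99 and the tetraspanin gene Tspan8 by 1.00.

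Among rises chosen in the same way, Gad1, which encodes a GABA-synthesizing enzyme, was called on 2 of its 3 tested probes, at 0.72 and 0.81 (adjusted p = 1.14e-05 and 1.12e-05), with the third at 0.42. Mep1b, a metalloprotease, was higher on all 3 probes, by 0.68 to 0.84. The mitochondrial transcripts mt-Nd6 and mt-Nd4l were lower, by 0.96 and 0.68 (adjusted p = 0.00989 and 0.0408).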
